A study of Rattus norvegicus with 6 samples.

Results

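Tumour necrosis factor (TNF) superfamily ligands are trimeric cytokines, most of them made as membrane proteins that can be cut free, and they signal by clustering receptors of the TNF receptor superfamily. The receptors either carry a death domain, which can start cell death, or recruit TRAF adaptors directly, and both routes can switch on NF-kB. In injured peripheral nerve, TNF is known as an early cytokine of Schwann cells and macrophages, and several of the receptors have been studied in axon growth and degeneration. The family was taken from the deposited gene table as every row whose symbol starts with Tnfsf or Tnfrsf, together with Tnf, Lta, Ltb, Ltbr, Fas, Faslg, Cd40, Cd40lg, Cd27 and Cd70. This gave 42 of 30957 rows, with 39 symbols, because Tnf, Ltb and Tnfsf11 have 2 rows each. Of the 42 rows, 22 are receptors and 20 are ligands.

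RNA was sequenced from 3 sciatic nerves after crush and from 3 intact contralateral ones, all from Sprague Dawley rats, which the methods describe as adult males. The methods place collection at 4 days postinjury and the tissue as the proximal stump, whereas the labels give no time point. An intact nerve of an injured rat is the control, so no nerve of an uninjured animal is in the comparison. The design text places the lesion on the right, whereas the methods describe a crush of the left nerve. RNase R, which digests linear RNA, is named in the methods but not in the labels.

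Between 24844371 and 27139360 reads per nerve were counted on genes, so that 3 counts, the floor used here for detection, were worth 0.110 to 0.121 CPM (counts adjusted for the size of each library). The labelled tissue was checked against marker lists, and several defining genes of peripheral nerve and most leukocyte genes were at or near 0. Of 15 Schwann cell and myelin genes, 7 had at most 3 counts in every nerve, among them Mbp, Sox10 and S100b, with Mag and Cdh19 at 0, and 8 passed the expression filter, the highest being Ncam1 and Pmp22. The macrophage list had 10 of 16 genes at or under 3 counts, and Ptprc, Adgre1, Cd163, Tyrobp, C1qa, C1qb, C1qc and Cx3cr1 were at 0. Its summed level was 4.17 to 6.17 CPM in intact nerves and 4.94 to 6.78 CPM in crushed nerves. At most 3 counts were found for 11 of 13 T and NK cell rows, for 6 of 6 B cell rows and for 8 of 9 neutrophil and mast cell rows. All 10 proliferation genes passed the expression filter, with a summed level of 4231 to 4455 CPM in intact nerves and 4105 to 4226 CPM in crushed nerves. The latter sums did not overlap between the groups, and neither did those of 4 other lists. They were the pericyte list (210.4 to 226 CPM intact, 171 to 175 CPM crushed), the Schwann cell list (163 to 170.3 CPM intact, 143 to 151 CPM crushed), the neutrophil and mast cell list (0.0758 to 0.158 CPM intact, 0 to 0.0368 CPM crushed) and the fibroblast list. Of 8 tested Schwann cell genes edgeR called 2 lower and 0 higher, DESeq2 called 2 and limma on log2(FPKM + 0.1) called 0. Over all genes tested, edgeR called 3.12% in either direction. Of 4 tested pericyte genes edgeR called 1 lower and 0 higher. Of the 10 proliferation genes edgeR, DESeq2 and limma on log2(FPKM + 0.1) each called 0, and their median log2 fold change was -0.0099. The neutrophil and mast cell sums lie near or under the floor of 0.110 to 0.121 CPM, with 8 of 9 genes at 0, so that difference rests on very few reads. The fibroblast sum was 968 to 1013 CPM intact and 1374 to 1425 CPM crushed, yet of its 7 tested genes 3 were called lower (Col1a1, Col3a1 and Pdgfrb, with log2 fold changes of -0.69, -1.76 and -0.77) and 1 higher (Fbn1, 0.63), the median being -0.32 on the log2 scale, and Col1a2, Dcn and Lum were at 0. The libraries are called nerves here because the labels do so, and the markers leave their cell makeup in question. The part of these lists in the results for the family was not tested, and in bulk tissue fewer cells of a type and less RNA per cell cannot be told apart.

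Of the 22 receptor rows, 10 passed edgeR's expression filter (filterByExpr), which asked for about 0.384 CPM in at least 3 nerves. These were Tnfrsf12a, Tnfrsf1a, Ltbr, Tnfrsf26, Tnfrsf1b, Tnfrsf21, Fas, Tnfrsf19, Tnfrsf4 and Tnfrsf11b. Of the 20 ligand rows, 6 passed, namely Tnfsf12, Tnfsf15, Tnfsf18, Tnfsf10, Tnfsf13 and Faslg. Over all 42 rows, 29 had a count in at least 1 nerve.

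**Figure D1:**
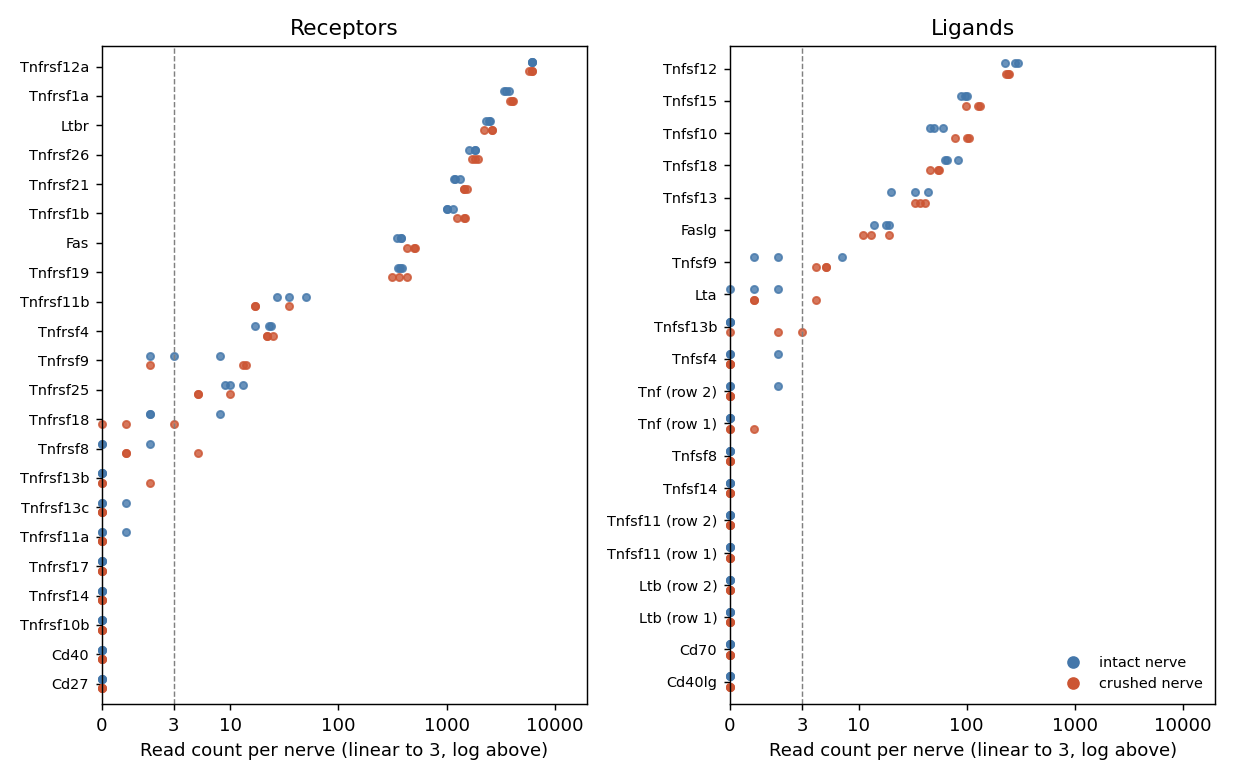
Read counts of all 42 rows in each of the 6 nerves, receptors on the left and ligands on the right, on an axis that is linear up to 3 counts (dashed line) and logarithmic above. Receptors reach 6207 counts (Tnfrsf12a), the highest ligand reaches 300 counts (Tnfsf12), and 5 receptor rows and 8 ligand rows lie at 0 in every nerve.

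Tnf, the ligand that gives the family its name, was at the limit of detection. Its row at chr20:4855829-4858447 had 2 counts in intact nerve 1 and 0 in the other 5 nerves. Its row at chr20:5189390-5192000 had 1 count in crushed nerve 1 and 0 in the other 5. Both copies of Ltb, the membrane partner of lymphotoxin alpha, and both copies of Tnfsf11, the osteoclast factor RANKL, had 0 counts in all 6 nerves. Reads that match both copies of a gene could have been split or left uncounted, and the counting rule is not given in the sources used here, so the levels of these 3 genes are uncertain. Lta, the soluble lymphotoxin with a single row beside Tnf, had 0, 2 and 1 counts in the intact and 4, 1 and 1 in the crushed nerves (numbers 1, 2 and 3 of each group, an order kept throughout).

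Several ligands with known roles between leukocytes were also at or near 0, whereas others, Tnfsf18, Tnfsf13 and Faslg, passed the filter. Cd40lg, Cd70, Tnfsf8 (CD30 ligand) and Tnfsf14 (LIGHT) had 0 counts in every nerve, which allows up to 0.110 to 0.121 CPM per nerve for counting error only. Tnfsf13b, the B cell survival factor BAFF, had 0 counts in each intact nerve and 0, 3 and 2 counts in crushed nerves 1, 2 and 3. Tnfsf4, the OX40 ligand, had 2 counts in intact nerve 3 and 0 elsewhere. Tnfsf9, the 4-1BB ligand, was low rather than absent, with 1, 7 and 2 counts in the intact and 4, 5 and 5 counts in the crushed nerves, and the groups overlapped.

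Among receptors, Cd40, Cd27, Tnfrsf14, Tnfrsf17 and Tnfrsf10b were at 0 in all 6 nerves. Cd40 and Cd27 are costimulatory receptors of B and T cells, Tnfrsf14 is the LIGHT receptor HVEM, Tnfrsf17 is the plasma cell receptor BCMA and Tnfrsf10b is the death receptor of TRAIL. Tnfrsf13b had 2 counts in crushed nerve 3 alone, and Tnfrsf13c and Tnfrsf11a had 1 count each in intact nerve 1 alone. The first 2 bind BAFF, and Tnfrsf11a is RANK, the receptor of Tnfsf11.

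A further 4 receptors were low. Tnfrsf25, the death receptor that binds Tnfsf15, had 13, 9 and 10 counts in the intact and 5, 10 and 5 in the crushed nerves. Tnfrsf9, the T cell costimulatory receptor 4-1BB, had 8, 2 and 3 counts in the intact and 2, 13 and 14 counts in the crushed nerves. For both, the groups overlapped. Tnfrsf18, the receptor GITR, had 2, 8 and 2 counts in the intact and 0, 3 and 1 counts in the crushed nerves, and Tnfrsf8 (CD30) had 0, 0 and 2 against 1, 5 and 1. When the filter was dropped and all 29 rows with a count were fitted, none of the 13 added rows was called by edgeR's quasi-likelihood test at an adjusted p under 0.05, 0 had an unadjusted p under 0.05, and the smallest adjusted p among them was 0.451 for Tnfsf13b.

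Levels per gene length were compared with the deposited FPKM (fragments per kilobase of gene, scaled to library size), as a description with no test. Tnfrsf12a (Fn14), a small receptor known to rise in injured tissue, was the highest member, with a mean of 244 FPKM over the 6 nerves and a range of 234 to 257 FPKM. It stood at percentile 97.9 of the 12393 genes that passed the filter. Tnfrsf1a, the death domain receptor of TNF found on most cells, followed at 68.2 FPKM (62.6 to 72.6 FPKM), and Ltbr, the lymphotoxin beta receptor, at 45.8 FPKM (43.0 to 48.0 FPKM). The ranges of these 3 receptors overlapped neither each other nor that of any member below them.

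Tnfrsf26, a rodent receptor of the family, and Tnfrsf1b, the TNF receptor without a death domain, were next at 16.5 and 16.2 FPKM, and their ranges over the 6 nerves overlapped. Tnfrsf21, the death receptor DR6, lay below both at 12.0 FPKM (10.8 to 13.5 FPKM). The death receptor Fas and the highest ligand, Tnfsf12 (TWEAK), had the same mean of 6.37 FPKM, with overlapping ranges of 5.09 to 7.45 and 5.60 to 7.63 FPKM. The next pair was Tnfsf15 (TL1A), a ligand known from endothelium, at 3.93 FPKM, and Tnfrsf19 (TROY), known as a partner of the Nogo receptor, at 3.69 FPKM.

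The remaining 6 were near or below 1 FPKM, and each overlapped the next in the order. These were Tnfsf18 (GITR ligand) at 1.14 FPKM, Tnfrsf4 (OX40) at 0.837 FPKM, Tnfsf10 (TRAIL) at 0.727 FPKM, Tnfsf13 (APRIL) at 0.501 FPKM, Tnfrsf11b (osteoprotegerin, a soluble decoy) at 0.400 FPKM and Faslg at 0.372 FPKM. No ligand was among the 6 highest members.

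**Figure D2:**
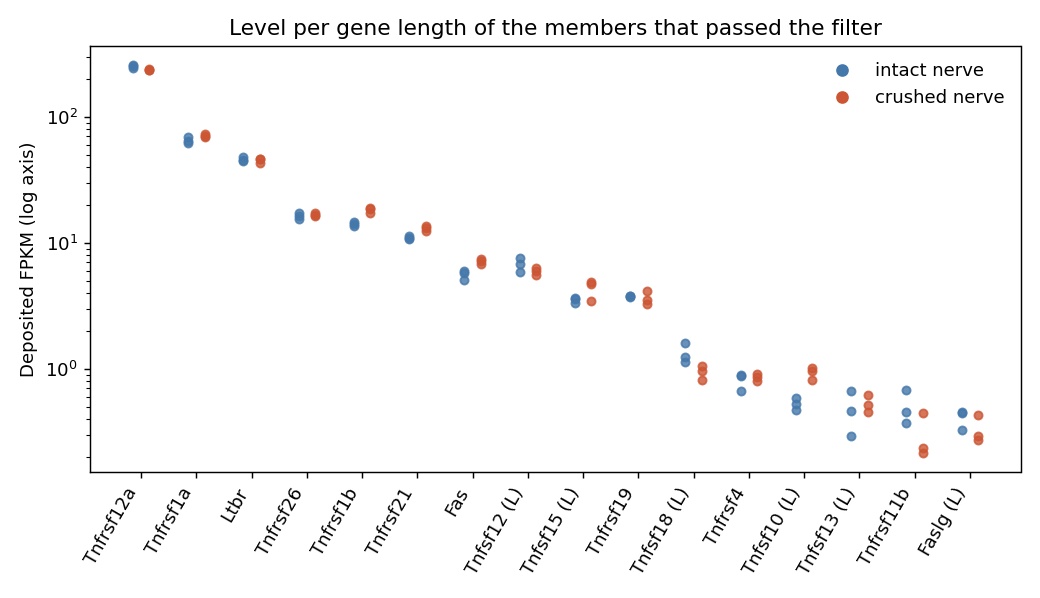
Deposited FPKM in each of the 6 nerves for the 16 members that passed the filter, ordered by their mean over all nerves, on a logarithmic axis, with ligands marked (L). Tnfrsf12a, Tnfrsf1a and Ltbr stand above all others, and Tnfsf12, at 5.60 to 7.63 FPKM, is the highest ligand.

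Ligands and receptors known to bind each other were then set side by side, which gave 25 pairs with both genes in the family. Both genes passed the filter in 3 pairs, the receptor alone in 8, the ligand alone in 5 and neither in 9. The 3 pairs were Tnfsf12 with Tnfrsf12a, where the receptor was 38.3 times the ligand in mean FPKM, Faslg with Fas, where it was 17.2 times the ligand, and Tnfsf10 with its decoy Tnfrsf11b, at 0.551 times the ligand. By group, the ratio was 37.0 in intact and 39.9 in crushed nerves for the first pair, 13.7 and 21.4 for the second and 0.952 and 0.323 for the third, and these differences were not tested. Pairs with only the receptor were those of Tnf and Lta with Tnfrsf1a and Tnfrsf1b, of Ltb and Tnfsf14 with Ltbr, of Tnfsf4 with Tnfrsf4 and of Tnfsf11 with Tnfrsf11b.

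Pairs with only the ligand were Tnfsf10 with Tnfrsf10b, Tnfsf13 with Tnfrsf13b and Tnfrsf17, Tnfsf15 with Tnfrsf25, and Tnfsf18 with Tnfrsf18. The ligands Tnfsf15 (89 to 133 counts) and Tnfsf18 (46 to 83 counts) were therefore measured beside receptors with at most 13 and 8 counts. These are RNA levels in tissue labelled as nerve and give no measure of protein or of which cells made them.

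**Figure D3:**
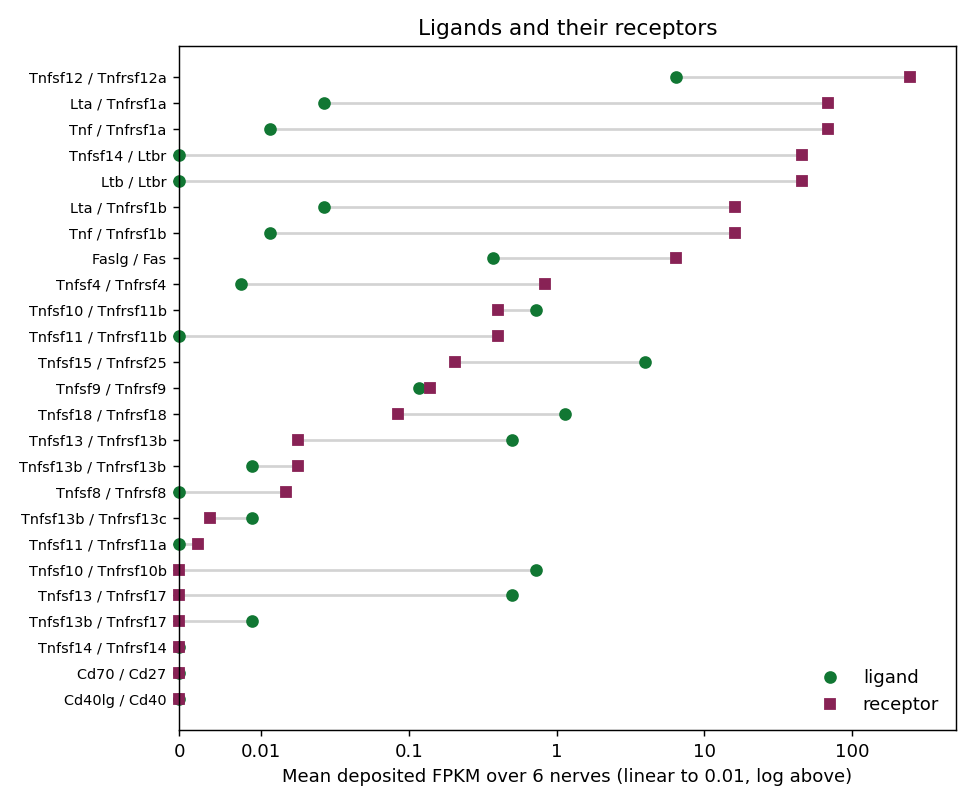
Mean deposited FPKM over the 6 nerves of ligands (circles) and receptors (squares) in 25 known pairs, on an axis that is linear up to 0.01 and logarithmic above, with the 2 rows of a gene summed. In the 7 pairs at the top the receptor is at 16.2 FPKM or more, and of their ligands only Tnfsf12, at 6.37 FPKM, is above 0.1 FPKM. The levels of the 2-row genes Tnf, Ltb and Tnfsf11 are uncertain. In the 3 lowest pairs both genes are at 0 and the symbols coincide.

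Several members lie next to each other in the genome (coordinates of the deposited table, for which the submitters' processing notes name the build Rnor_6.0), and neighbours often had very different counts. On chromosome 4, Tnfrsf1a (chr4:157864969-157877633) and Ltbr (chr4:157822840-157829241) are 35.7 kb apart and reached 4098 and 2628 counts, whereas Cd27, 72.8 kb from Ltbr, had 0. On chromosome 5, Tnfrsf1b reached 1471 counts and Tnfrsf8, 19.1 kb away, reached 5. Tnfsf18 and Tnfsf4 lie 85.0 kb apart on chromosome 13, with at most 83 and 2 counts. Tnfsf12 (chr10:56290780-56300077) and Tnfsf13 (chr10:56286887-56289952), which both passed the filter, are separated by 0.828 kb, so reads from one could have been counted on the other, which was not tested.

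The crushed nerves were compared with the intact nerves to ask which members changed after the lesion. At an adjusted p under 0.05 in edgeR's quasi-likelihood test over 12393 genes, 2 of the 16 tested members were called, the receptor Tnfrsf1b and the ligand Tnfsf10, both higher in crushed nerves. That is 12.5% of the tested members beside 3.12% of all genes tested, of which 1.47% were called higher. None was called lower by edgeR or DESeq2. Without the adjustment, 7 of 16 had a p under 0.05 (4 higher, 3 lower), or 43.8% beside 16.2% of all genes. None of the 16 met the limits in the study's methods, an absolute log2 fold change above 1 with a p under 0.001, which 0.282% of all genes met. DESeq2 and limma gave 0 there as well.

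Changes in the family were small. The median log2 fold change of the 16 tested members was 0.04 beside -0.0017 for all genes tested, with 9 members above 0 and 7 below, and the largest absolute value was 0.80. In 6 of 16 members, or 37.5%, the normalized CPM of the groups did not overlap (4 higher and 2 lower in crushed nerves), beside 23.0% of all genes tested. With 3 nerves against 3, the smallest p an exact two-sided permutation test can give is 0.1, which is what each of these 6 members had.

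**Figure D4:**
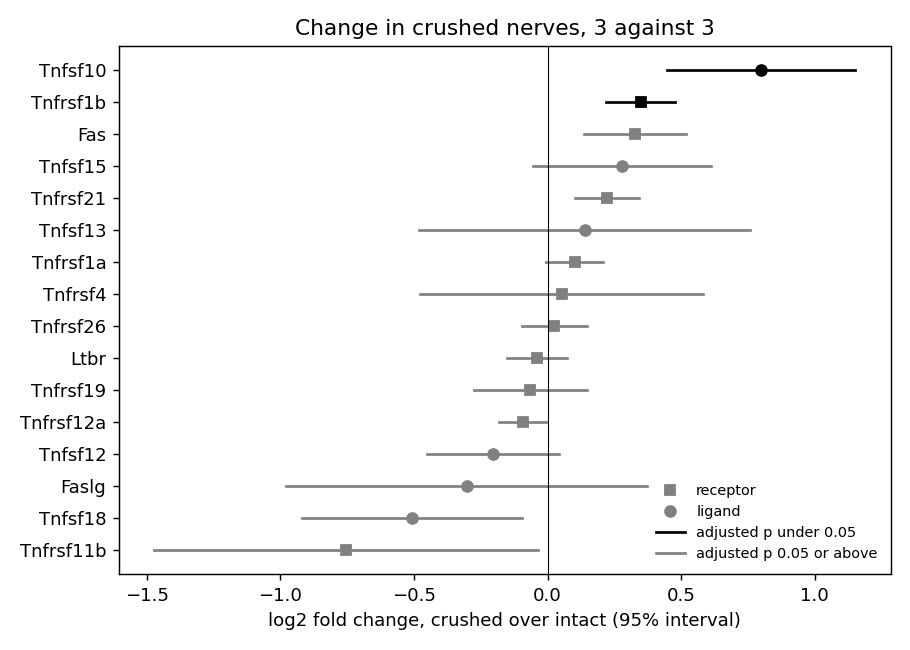
The log2 fold change of crushed over intact nerves with its 95% interval for the 16 tested members (edgeR, 3 nerves against 3), receptors as squares and ligands as circles, black where the adjusted p was under 0.05. Tnfsf10 (0.80) and Tnfrsf1b (0.35) are black, and intervals are widest for members with few counts such as Tnfrsf11b (-1.47 to -0.04).

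Tnfrsf1b (chr5:163136390-163167299) encodes TNFR2, which recruits TRAF2 and responds mainly to membrane-bound TNF. Its counts were 1003, 1135 and 1014 in the intact and 1464, 1471 and 1242 in the crushed nerves, in the order of their numbers. The groups did not overlap, at 41.2 ± 1.70 normalized CPM (SD, n = 3) intact and 52.5 ± 2.51 normalized CPM crushed. The difference was 27.3%, a log2 fold change of 0.35 (SE 0.0584, 95% interval 0.22 to 0.48, adjusted p = 0.00872). The call was lost without crushed nerve 1 (adjusted p = 0.0578) or crushed nerve 2 (0.0586), with log2 fold changes of 0.33 and 0.32.

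Tnfsf10 (chr2:113007549-113026899) encodes TRAIL, a ligand that can trigger cell death through its death receptors. The intact nerves held 46, 60 and 50 counts and the crushed nerves 100, 105 and 78, so the groups did not overlap. Normalized CPM were 2.04 ± 0.229 intact and 3.55 ± 0.390 crushed (SD, n = 3), 74.1% higher, with a log2 fold change of 0.80 (SE 0.160, 95% interval 0.45 to 1.15, adjusted p = 0.0222). It was a low gene, with its mean FPKM over all 6 nerves at percentile 8.44 of the genes tested. The call was lost without intact nerve 1 (adjusted p = 0.0548), intact nerve 3 (0.0601), crushed nerve 1 (0.0975) or crushed nerve 2 (0.102), with log2 fold changes of 0.73 to 0.80, and in limma on log2(FPKM + 0.1), where the adjusted p was 0.0592.

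The next smallest p-values belonged to the death receptors Tnfrsf21 and Fas, which missed the threshold. Tnfrsf21 (chr9:20546159-20621051), studied for its part in axon degeneration, had 1199, 1321 and 1180 counts in the intact and 1557, 1459 and 1464 counts in the crushed nerves. This is 48.4 ± 1.48 against 56.4 ± 2.41 normalized CPM (SD, n = 3), with no overlap, and a log2 fold change of 0.22 (95% interval 0.10 to 0.34, adjusted p = 0.0559). Fas (chr1:252589785-252624790), the receptor of Faslg, had 379, 345 and 378 counts in the intact and 497, 514 and 430 counts in the crushed nerves. This is 14.4 ± 1.19 against 18.1 ± 0.889 normalized CPM (SD, n = 3), also with no overlap, and a log2 fold change of 0.33 (95% interval 0.14 to 0.52, adjusted p = 0.0744). DESeq2 called both, with an adjusted p of 0.0325 for Tnfrsf21 and 0.0450 for Fas.

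**Figure D5:**
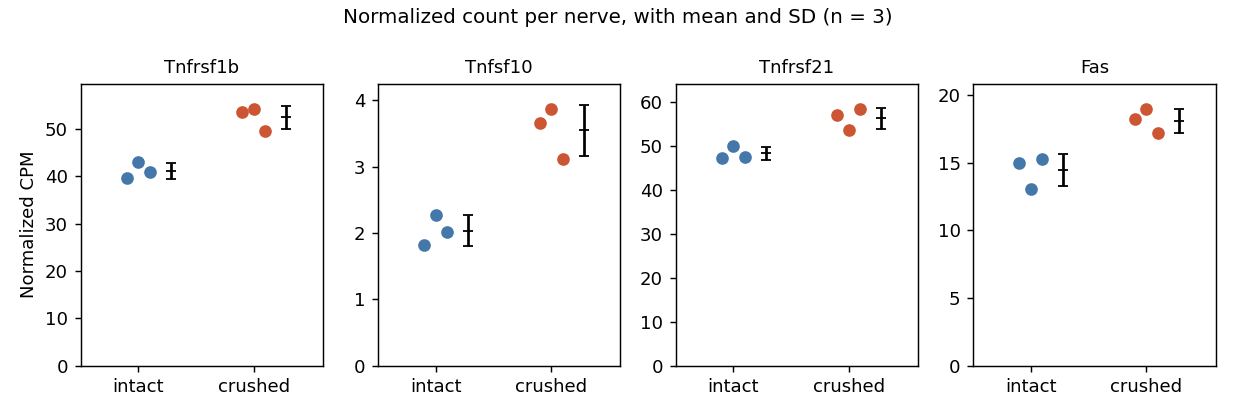
Normalized CPM in each of the 3 intact and 3 crushed nerves for the 4 members with the smallest p, on axes that start at 0, with the mean and SD of each group as a bar to the right of its points. In each panel all crushed nerves lie above all intact nerves, with group means of 41.2 and 52.5 for Tnfrsf1b, 2.04 and 3.55 for Tnfsf10, 48.4 and 56.4 for Tnfrsf21 and 14.4 and 18.1 for Fas.

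The promoters of these 4 genes are shown because they are the members with the smallest p-values and all were higher in crushed nerves. Each is the 250 bases before the start site in RefSeq's GRCr8 annotation, on the gene's own strand, at chr5:162387412-162387661 (minus strand) for Tnfrsf1b, chr2:112136689-112136938 (plus) for Tnfsf10, chr9:25451324-25451573 (minus) for Tnfrsf21 and chr1:241211905-241212154 (plus) for Fas. Capitals mark matches on either strand to the NF-kB consensus, to the AP-1 motif TGANTCA or to the interferon response motif (GAAA, 2 bases of any kind, GAAA). The last base before the start site is position -1.
Tnfrsf1b: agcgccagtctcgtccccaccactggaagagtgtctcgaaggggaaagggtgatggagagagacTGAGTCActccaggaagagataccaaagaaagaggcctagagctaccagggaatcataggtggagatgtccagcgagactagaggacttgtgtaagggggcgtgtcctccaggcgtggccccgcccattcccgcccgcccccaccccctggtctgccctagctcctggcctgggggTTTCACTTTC
Tnfsf10: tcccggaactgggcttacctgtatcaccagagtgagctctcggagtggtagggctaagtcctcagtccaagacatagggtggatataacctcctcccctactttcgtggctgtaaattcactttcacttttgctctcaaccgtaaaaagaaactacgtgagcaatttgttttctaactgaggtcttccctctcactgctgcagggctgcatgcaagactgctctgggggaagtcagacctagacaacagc
Tnfrsf21: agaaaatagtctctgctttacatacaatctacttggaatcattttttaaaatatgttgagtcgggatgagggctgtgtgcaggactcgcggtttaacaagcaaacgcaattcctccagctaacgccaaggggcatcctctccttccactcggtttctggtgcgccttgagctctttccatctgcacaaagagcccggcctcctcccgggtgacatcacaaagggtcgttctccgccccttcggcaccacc
Fas: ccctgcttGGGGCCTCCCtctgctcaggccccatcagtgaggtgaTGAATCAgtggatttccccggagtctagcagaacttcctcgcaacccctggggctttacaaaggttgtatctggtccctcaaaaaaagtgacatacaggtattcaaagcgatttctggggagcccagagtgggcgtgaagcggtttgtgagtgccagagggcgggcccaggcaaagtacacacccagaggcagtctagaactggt

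In the Fas window the NF-kB consensus started at position -242 and TGANTCA at position -205, as TGAATCA, which is not the AP-1 site. In the Tnfrsf1b window TGANTCA started at position -186, as TGAGTCA, and the interferon response motif, read from the other strand, started at position -10. The windows of Tnfsf10 and Tnfrsf21 held none of the 3 motifs. Over 33469 windows of the same length, 6.33% held the NF-kB consensus, 6.34% TGANTCA and 3.41% the interferon response motif. Of 29 member symbols with a RefSeq promoter, 5 held the NF-kB consensus (Fas, Lta, Ltb, Tnfrsf8 and Tnfsf14), 3 held TGANTCA (Fas, Tnfrsf1b and Tnfrsf8) and 3 held the interferon response motif (Tnfrsf17, Tnfrsf1b and Tnfsf13b). A match describes the letters of the window and was not tested for binding.

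Members with lower values in crushed nerves did not pass the threshold. Tnfsf18 (chr13:79378733-79388498) had 66, 63 and 83 counts in the intact and 54, 46 and 55 counts in the crushed nerves. Its normalized CPM, 2.78 ± 0.504 intact and 1.96 ± 0.251 crushed (SD, n = 3), did not overlap, and its log2 fold change was -0.51 (95% interval -0.92 to -0.10, adjusted p = 0.204). Tnfrsf12a (chr10:12995904-12997930), the most abundant member, had 6205, 6207 and 6145 counts in the intact and 6113, 6192 and 5787 counts in the crushed nerves. Normalized for library size its groups did not overlap, at 243 ± 6.73 against 228 ± 3.58 CPM (SD, n = 3), and the log2 fold change was -0.09 (95% interval -0.18 to -0.0071, adjusted p = 0.270). The decoy Tnfrsf11b (chr7:93798545-93826665) had 50, 35 and 27 counts in the intact and 17, 35 and 17 counts in the crushed nerves, with overlapping groups and a log2 fold change of -0.75 (95% interval -1.47 to -0.04, adjusted p = 0.282).

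The other abundant receptors had narrow intervals that included 0, although that of Tnfrsf1a lay almost wholly above it. Tnfrsf1a, the other TNF receptor, had 3777, 3548 and 3420 counts in the intact and 4025, 4098 and 3864 counts in the crushed nerves, for a log2 fold change of 0.10 (95% interval -0.0040 to 0.21, adjusted p = 0.331). Ltbr had 2546, 2477 and 2338 counts in the intact and 2628, 2617 and 2222 counts in the crushed nerves, with a log2 fold change of -0.04 (95% interval -0.15 to 0.07, adjusted p = 0.764). Tnfrsf26 had 1836, 1814 and 1599 counts in the intact and 1972, 1845 and 1736 counts in the crushed nerves, with a log2 fold change of 0.02 (95% interval -0.10 to 0.15, adjusted p = 0.869). In normalized CPM the groups overlapped for all 3, although for Tnfrsf1a neither the raw counts nor the FPKM did. The sign for Ltbr and Tnfrsf26 depended on which nerves were used. Tnfrsf19 had 370, 388 and 354 counts in the intact and 431, 364 and 313 counts in the crushed nerves, with a log2 fold change of -0.06 (95% interval -0.28 to 0.15, adjusted p = 0.792).

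Among the remaining ligands, Tnfsf12 (TWEAK) had 300, 278 and 225 counts in the intact and 248, 233 and 243 counts in the crushed nerves, for a log2 fold change of -0.20 (95% interval -0.45 to 0.04, adjusted p = 0.404). Tnfsf15 had 89, 100 and 96 counts in the intact and 99, 133 and 127 counts in the crushed nerves, for a log2 fold change of 0.28 (95% interval -0.05 to 0.61, adjusted p = 0.398). Both had overlapping groups. Another 3 members with few counts gave wide intervals, so that changes of moderate size were not detectable at this depth. Faslg had 19, 14 and 18 counts in the intact and 13, 19 and 11 counts in the crushed nerves (95% interval of the log2 fold change -0.98 to 0.37). Tnfsf13, which supports plasma cells, had 20, 33 and 44 counts in the intact and 33, 37 and 41 counts in the crushed nerves (-0.48 to 0.76). Tnfrsf4 had 23, 24 and 17 counts in the intact and 25, 22 and 22 counts in the crushed nerves (-0.48 to 0.58).

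Genes of the signalling pathway that these receptors feed were examined in 5 lists. The lists were chosen with earlier results of these data known. The study's own pathway analysis of the same data had already named NF-kB and TNF signalling as mainly enriched. The shares of the lists below are therefore a description and not a test. Of 76 tested genes, 21 were higher in crushed nerves at an adjusted p under 0.05 in edgeR's quasi-likelihood test and 0 were lower. Of all genes tested, 1.47% were called higher. Lower values with an unadjusted p under 0.05 were found for 5 pathway genes. DESeq2 called 1 gene lower, the NF-kB inducing kinase Map3k14 (log2 fold change -0.25, adjusted p = 0.0423). Among NF-kB kinases, subunits and inhibitors, 8 of 19 rose, or 42.1% beside 1.47% for all genes tested. Nfkbia, the inhibitor that NF-kB itself induces, went from 729 to 844 counts in the intact to 2506 to 2689 counts in the crushed nerves, for a log2 fold change of 1.65. Relb and Nfkb2, the subunits of the noncanonical arm, rose by log2 fold changes of 1.85 and 0.75, and Tnfaip3, the deubiquitinating inhibitor A20, by 0.97. The largest adjusted p among these 4 was 1.955e-05.

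Of 28 TRAF proteins and receptor adaptors, 4 rose, or 14.3% beside 1.47% for all genes tested. Birc3, an inhibitor of apoptosis that binds TRAF2, had 123 to 145 counts in the intact and 475 to 500 counts in the crushed nerves, for a log2 fold change of 1.79. Traf1, Traf3 and Traf2 rose by 0.81, 0.40 and 0.28 on the log2 scale, with the largest adjusted p being 0.0156 for Traf2. Of 21 tested genes listed here as targets that TNF can induce, 12 rose, or 57.1% beside 1.47% for all genes tested. Their list had a median log2 fold change of 0.42. The other 9 were not called, among them Cxcl10, Lif and Ptgs2, with log2 fold changes of 0.06, 0.08 and 0.0012. Mmp3, also uncalled, had a log2 fold change of -0.44. Of the 29 rows of the list, 6 had at most 3 counts in every nerve, among them Il6, Csf2 and Ccl5. The list was chosen by hand, and only its Tnfaip genes are named for TNF. The genes that rose included Nfkbia, Birc3, Tnfaip3 and Traf1, which the other lists also hold, so these calls are repeated here. They also included the neutrophil chemokine Cxcl1, with a log2 fold change of 1.48. It had 472 to 566 counts in the intact and 1395 to 1541 counts in the crushed nerves. Genes of this list are known to respond to many other stimuli as well.

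Of 6 tested sheddases and their partners, which cut TNF family proteins from the membrane, 1 was called higher. It was Rhbdf2 (iRhom2, which brings ADAM17 to the cell surface), with a log2 fold change of 0.40 (adjusted p = 0.0395). This 1 gene is 16.7% of that list, beside 1.47% for all genes tested, and limma on log2(FPKM + 0.1) called none. Adam17 itself had 3073 to 3158 counts in the intact and 3332 to 3472 counts in the crushed nerves, with a log2 fold change of 0.06 (adjusted p = 0.587). Of 6 tested relatives outside the symbol rule (Eda, Eda2r, Edaradd, Relt, Rell1 and Rell2), 0 were called by edgeR, DESeq2 or limma, and 0 had an unadjusted p under 0.05. Ngfr, the neurotrophin receptor p75 of injured Schwann cells, was below the filter with 3 to 5 counts in the intact and 0 to 2 counts in the crushed nerves.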

How the data were processed

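RNA-seq of 3 crushed and 3 intact rat sciatic nerves was used, grouped by the sample labels. The authors deposited 1 table of read counts per Ensembl gene and nerve, not normalized, and FPKM values that the authors scaled to gene length and library total. The submitters' processing notes name HISAT2, StringTie 1.3.0 and Rnor_6.0, and the counting rule is not given in the sources used here. All 12 value columns were assigned by sample title, and 0 others were present.

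All genes were fitted together in R 4.3.3 by edgeR's quasi-likelihood test (version 4.0.16), with TMM factors, filterByExpr (minimum count 10, or 0.384 CPM) and group as the only term. Adjusted p-values are Benjamini-Hochberg over the 12393 genes tested. Standard errors come from the test statistic. The calculation was tested on simulated counts. Total counts were 24844371 to 27139360 per nerve, and the floor of 3 counts covers the error of counting alone. Pairs of nerves within a group differed by more than sampling noise (chi-square per degree of freedom 3.38 to 12.3), so each was kept as 1 sample. The design text calls them biological replicates, without saying that a number marks 1 rat.

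Every member is accounted for. Of each pathway list, up to 4 called genes with the smallest p were named. Map3k14, Adam17, Ngfr, the uncalled relatives and the uncalled or untested TNF targets were named in addition, after their values were seen. Genes at 0 were named for the Schwann cell, macrophage and fibroblast lists only. Endothelial and perineurial lists were also examined, and their sums overlapped between the groups. The members and lists were chosen with earlier results of these data known. Alternatives were RLE size factors, DESeq2 1.42.0, no filter, a replicate block, limma 3.58.1 with a trend on log2(FPKM + 0.1) and log2(FPKM + 1), an unadjusted p, levels in CPM and each nerve left out in turn. Promoters come from RefSeq's GRCr8 annotation, with 29 of 39 member symbols matched, 14 of them among the 16 tested, and other coordinates from the deposited table.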

Additional observations from a re-analysis of the deposited data

How the results depend on the processing

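The count of 2 members called higher became 4 with DESeq2 (with Fas and Tnfrsf21 added), 1 with limma on log2(FPKM + 0.1) (Tnfrsf1b), and 7 in either direction at an unadjusted p under 0.05. With each nerve left out in turn it was 0 to 2: Tnfrsf1b alone remained without intact nerve 1 or 3, and neither gene without crushed nerve 1 or 2. Tnfrsf1b was called in 10 and Tnfsf10 in 7 of 12 alternatives, with log2 fold changes of 0.32 to 0.39 and 0.34 to 0.89. The count of members past the study's limits was 0 in all alternatives run. With the replicate block 2 members were called, Tnfrsf1b and Tnfsf10, and 300 genes in all beside 387. Deviations of same-numbered nerves had correlations of -0.0148, 0.00586 and 0.0756, which cannot show whether a number marks 1 rat. Because the labels do not say that it does, the numbers were not taken as pairs in the main fit.

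With nerves left out, 21 pathway genes called higher became 16 to 22, and the 0 called lower became 1 with DESeq2. Signs turned in uncalled members when a nerve was left out, with log2 fold changes of -0.10 to 0.45 for Tnfsf13, -0.0582 to 0.000476 for Ltbr, -0.0149 to 0.0720 for Tnfrsf26, -0.166 to 0.00563 for Tnfrsf19 and -0.0647 to 0.122 for Tnfrsf4. The causes were not tested. Of all results for single members under the alternatives, 176 kept direction and side of the threshold, 7 lost the call, 2 gained it and 7 turned sign. Ordered by CPM, without gene length, Tnfrsf21 stood above Tnfrsf1b, Tnfrsf19 went from rank 10 to 8, above Tnfsf12, Tnfsf10 from 13 to 11 and Tnfrsf4 from 12 to 15, with shifts of 1 rank in others. Low counts limit Faslg, Tnfrsf4, Tnfrsf11b, Tnfsf13 and all members below the filter.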
